A study of Mus musculus with 24 samples.

Results

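The expression of 10 genes of the amino acid stress response was examined in cultured neural stem and progenitor cells (NSPCs) carrying 0, 1 or 2 null alleles of *Kat6a*, the gene of the histone lysine acetyltransferase KAT6A. The genes were *Atf4*, *Atf5*, *Ddit3*, *Trib3*, *Chac1*, *Asns*, *Psat1*, *Phgdh*, *Sesn2* and *Slc7a11*, which were taken by symbol from the 26411 genes of the count files. NSPCs had been isolated from the dorsal telencephalon of E12.5 C57BL/6 embryos, and mRNA was sequenced in 24 libraries, each from the cells of 1 embryo. Proliferating NSPCs were grown for 3 days from 150000 cells per well with FGF2 and EGF, and comprised 4 *Kat6a*+/+ wildtype, 4 *Kat6a*+/- heterozygous and 4 *Kat6a*-/- homozygous null libraries. Differentiating NSPCs were grown for 3 days from 600000 cells per well on poly-L-ornithine and laminin in medium containing fetal bovine serum, again with 4 libraries of each genotype. The *Kat6a*- allele is a null allele made by deleting part of the gene. It is carried in every cell from fertilisation, so that effects arising in the embryo and in culture cannot be told apart.

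Cells that run short of amino acids, or that accumulate unfolded protein in the endoplasmic reticulum, phosphorylate the initiation factor eIF2. General translation then slows, while translation of the transcription factor ATF4 increases. ATF4, alone or with partners such as CHOP, the product of *Ddit3*, induces genes for amino acid synthesis, amino acid uptake and glutathione supply, and also genes that end the response. Because ATF4 is controlled largely at translation, *Atf4* mRNA and ATF4 activity need not move together, and no protein was measured in these libraries. Proliferating neural progenitors are biosynthetically active cells that use serine and one-carbon metabolism for nucleotide synthesis.

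Many ATF4 targets hold a composite site for C/EBP and ATF proteins near the transcription start. The letters TGATGNAA, read on either strand, were searched in windows from 250 bases before to 50 bases after each annotated start. They occurred in windows of 4 of the 10 genes, against 3.97% of 32851 windows and 4.51% of 27025 genes in the RefSeq table, whose build is GRCm38.p6. The stretches of these 4 genes are shown because they include the genes with the widest spread among the libraries. Capitals mark the matched letters, every stretch reads 5′ to 3′ along the gene's own strand, and coordinates are those of the same sequence in GRCm39.
*Trib3*, chr2:152185948-152185977 on the minus strand: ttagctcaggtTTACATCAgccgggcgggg
*Chac1*, chr2:119181504-119181563 on the plus strand: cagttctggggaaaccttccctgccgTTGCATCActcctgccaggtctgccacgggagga
*Asns*, chr6:7693210-7693269 on the minus strand: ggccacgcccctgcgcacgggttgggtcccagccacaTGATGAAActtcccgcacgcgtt
*Slc7a11*, chr3:50398086-50398145 on the minus strand: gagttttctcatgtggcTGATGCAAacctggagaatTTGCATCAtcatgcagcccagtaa
The match began 23 bases before the start of *Asns* and 193 bases before that of *Chac1*, while that of *Trib3* lay 15 bases into the transcript. *Slc7a11* held 2 matches, at 66 and 47 bases before the start. These starts are those of the windows, and the windows of *Asns*, *Trib3* and *Chac1* lay inside the gene loci given below, not at their ends. A match is a description of letters, and their absence in the other 6 genes says nothing about binding. The 10 genes were chosen as genes of this response, so their share with a match is not a test of enrichment.

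In GRCm39, *Asns* lies on the minus strand at chr6:7671667-7728461, *Trib3* on the minus strand at chr2:152179337-152191958 and *Chac1* on the plus strand at chr2:119180757-119184866. *Atf4* lies on the plus strand at chr15:80139372-80141745, *Ddit3* on the plus strand at chr10:127126698-127129622 and *Atf5* on the minus strand at chr7:44461680-44466082. On the minus strand lie also *Psat1* at chr19:15882039-15924701, *Phgdh* at chr3:98220484-98255047, *Sesn2* at chr4:132219335-132237815 and *Slc7a11* at chr3:49846975-50398070. All 10 are protein-coding genes, and counts were taken over their exons. Exons of *Asns*, *Atf5* and *Ddit3* overlap genes on the opposite strand, and the strand setting of the read counting is not given in the sources used here, so reads of the partner genes could be included.

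Library totals ranged from 7826660 to 40838203 counts. All 10 genes passed the filter on low counts in both conditions, but *Trib3* was covered by only 2 to 18 reads per library in differentiating NSPCs. Values are CPM, read counts brought to a common library size with TMM factors, and a gene was called changed at a Benjamini-Hochberg false discovery rate (FDR) below 0.05 over all genes tested with limma. Differences are log2 fold changes with their standard errors (SE). The libraries of each group came from different embryos, so the tests measure the spread between cultures of single embryos. In either condition, Y-linked reads were present in 3 wildtype libraries but in only 1 heterozygous and 1 null library of the 4 of each, so embryo sex and genotype were partly confounded. Among 6 embryo labels used in both conditions, 5 matched for Y-linked reads and 1, that of wildtype replicate 1 in both conditions, did not. Differentiating null replicate 2 stood apart from the other null libraries and received a quality weight of 0.20, whereas 69.0% of the total null weight fell on replicate 3. Of the total differentiating wildtype weight, 42.0% fell on replicate 1, the library whose embryo label did not match. Counts of *Kat6a*, which include exons left in the null allele, averaged 393 ± 11.7 CPM (SD, n = 4) in wildtype and 362 ± 24.5 CPM in null proliferating libraries. In differentiating libraries they averaged 266 ± 24.4 and 190 ± 41.6 CPM, with null replicate 2 at 250 CPM. The gene count therefore did not check the genotype labels. Summed CPM of 6 NSPC markers lay between 5294 and 11575 in the 24 libraries. In proliferating NSPCs the sum was 7130 to 7817 in wildtype and 5294 to 7231 in null libraries, with 1 of 6 markers called higher and 2 lower. In differentiating NSPCs it was 5848 to 7454 in wildtype and 8161 to 11575 in null libraries, without overlap.

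Per length of transcript, the 10 genes spanned a wide range of levels. In proliferating wildtype NSPCs, *Psat1*, an enzyme of serine synthesis, was highest at 187 ± 8.56 RPKM (SD, n = 4; counts divided by library size and by gene length). *Atf4* followed at 125 ± 18.8 RPKM and *Phgdh*, which catalyses the first step of serine synthesis, at 63.5 ± 3.06 RPKM, and neighbours among these 3 did not overlap. *Atf5*, *Asns* and *Sesn2* lay between 28.0 and 28.9 RPKM and overlapped. *Ddit3* was at 12.2 ± 2.22 RPKM, below all of these. *Chac1*, *Trib3* and *Slc7a11* were lowest at 2.38 to 3.62 RPKM and overlapped. The order *Psat1*, *Atf4*, *Phgdh* held for the means of all 6 groups, although these neighbours overlapped in differentiating null libraries, as did *Atf4* and *Phgdh* in differentiating heterozygous libraries. *Asns* went from the fifth place in proliferating wildtype NSPCs to the seventh in differentiating wildtype NSPCs, at 6.14 ± 1.09 RPKM.

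**Figure D1:**
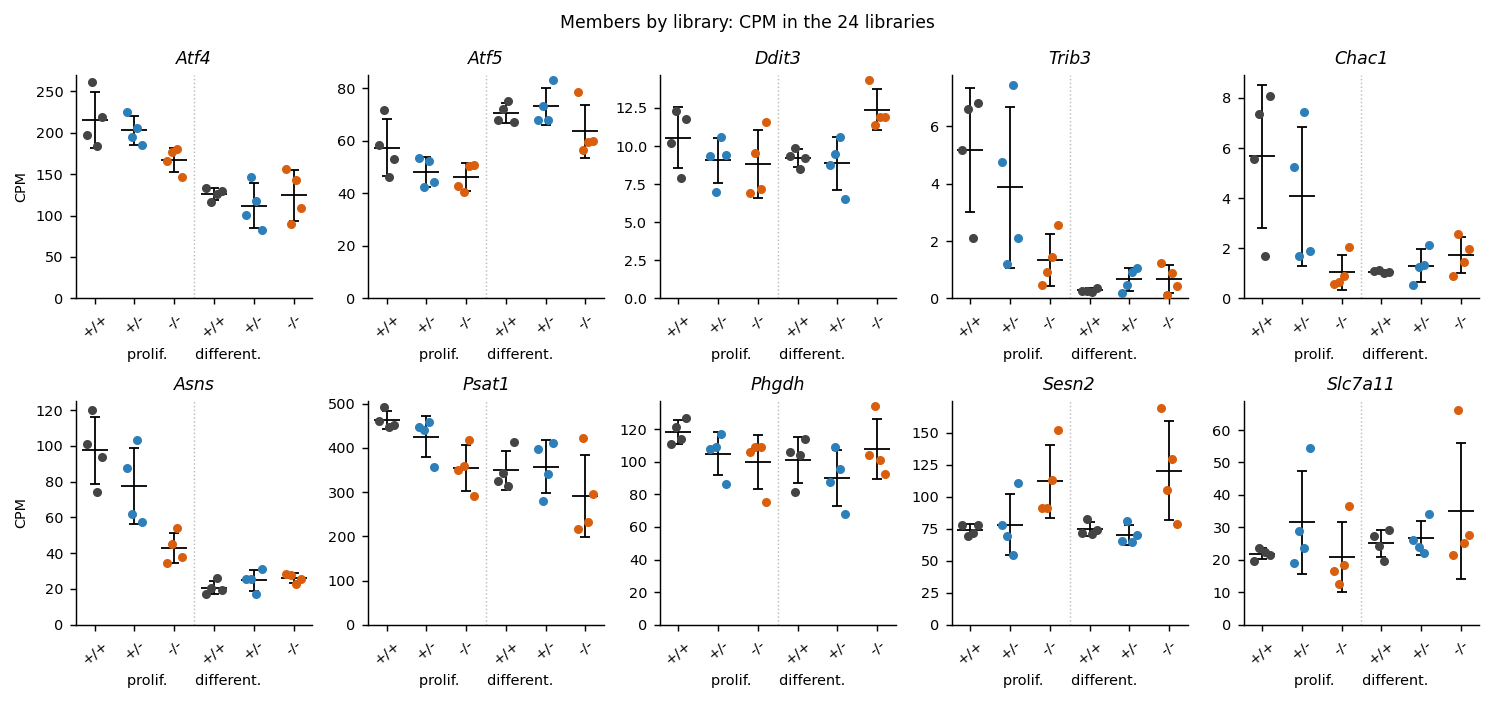
Level of each gene in every library, as TMM-scaled CPM on axes that start at 0; points are the 4 libraries of a group, bars the group means, and error bars the SD. *Asns* lay between 34.8 and 53.9 CPM in proliferating null libraries and between 74.4 and 120 CPM in proliferating wildtype libraries, and between 17.1 and 31.3 CPM in all 12 differentiating libraries.

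In proliferating null NSPCs *Asns*, which makes asparagine from aspartate, fell more than 2-fold, and *Psat1* and *Atf4* fell by smaller amounts. *Sesn2*, whose product senses leucine and restrains mTORC1, rose. These 4 of 10 genes were called, against 30.0% of the 12276 genes tested, with 16.2% of all genes called higher and 13.8% lower. With 10 genes this count stood near the share over all genes. The median log2 fold change was -0.27 over the 10 genes and -0.0045 over all genes tested, and 9 of the 10 estimates were negative. Groups did not overlap for 5 of the 10 genes, against 30.8% of all genes.

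Among the transcription factors, *Atf4* was at 197, 261, 184 and 219 CPM in wildtype replicates 1 to 4, and at 166, 176, 180 and 147 CPM in null replicates 1 to 4. All null libraries were below all wildtype libraries, although wildtype replicate 3 and null replicate 3 were close, at 184 and 180 CPM. *Atf4* fell by 0.30 on the log2 scale (SE 0.096, FDR = 0.0302, limma). *Atf5*, an ATF4-related factor that is itself induced by this response, ranged from 46.2 to 71.7 CPM in wildtype and from 40.4 to 50.9 CPM in null libraries (log2 fold change -0.24, SE 0.12, FDR = 0.137). *Ddit3* ranged from 7.89 to 12.3 CPM and from 6.92 to 11.6 CPM (log2 fold change -0.23, SE 0.19, FDR = 0.375). The ranges of *Atf5* and of *Ddit3* overlapped between genotypes.

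*Asns* showed the clearest separation. Wildtype replicates 1 to 4 had 101, 120, 74.4 and 94.0 CPM, and null replicates had 34.8, 45.0, 53.9 and 37.9 CPM. The highest null library was below the lowest wildtype library. *Asns* fell by 1.09 on the log2 scale (SE 0.20, FDR = 0.00241), a 2.12-fold difference, and it was called in every alternative fit, including each fit without 1 library. *Psat1* was at 460, 492, 447 and 451 CPM in wildtype and at 350, 360, 419 and 291 CPM in null replicates, again without overlap. It fell by 0.35 on the log2 scale (SE 0.091, FDR = 0.0119). *Phgdh* did not overlap either, at 111 to 127 CPM in wildtype and 75.3 to 109 CPM in null libraries, but was not called (log2 fold change -0.24, SE 0.10, FDR = 0.0905).

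*Trib3* and *Chac1* had the largest differences and the largest errors. *Trib3* encodes a pseudokinase that binds ATF4 and limits its activity, and *Chac1* encodes an enzyme that breaks down glutathione. *Trib3* was at 5.18, 6.62, 2.10 and 6.81 CPM in wildtype replicates 1 to 4 and at 0.461, 0.918, 1.44 and 2.57 CPM in null replicates. *Chac1* was at 5.55, 7.34, 1.70 and 8.09 CPM in wildtype and at 0.577, 0.655, 0.886 and 2.06 CPM in null replicates. For both genes wildtype replicate 3 was low and null replicate 4 was high, and these 2 libraries made the groups overlap. Neither was called, with log2 fold changes of -1.72 for *Trib3* (SE 0.70, FDR = 0.0780) and -2.01 for *Chac1* (SE 0.77, FDR = 0.0644). The 95% interval of the log2 fold change was -3.23 to -0.22 for *Trib3* and -3.67 to -0.35 for *Chac1*.

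*Sesn2* was at 78.1, 69.4, 71.8 and 77.5 CPM in wildtype replicates and at 91.0, 91.4, 113 and 152 CPM in null replicates. Every null library exceeded every wildtype library. *Sesn2* rose by 0.55 on the log2 scale (SE 0.15, FDR = 0.0168), and was not called without null replicate 4 (FDR = 0.0953). *Slc7a11*, the cystine transporter subunit that feeds glutathione synthesis, was at 19.7 to 23.8 CPM in wildtype libraries and at 16.5, 18.3 and 36.6 CPM in null replicates 1, 3 and 4, with replicate 2 lower than all of these, and was not called (log2 fold change -0.24, SE 0.28, FDR = 0.536).

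Litter was a batch within which the null genotype could be compared in 2 instances. In litter 4633, 1 wildtype library had 74.4 CPM of *Asns* and the mean of 2 null libraries was 39.9 CPM, a log2 difference of -0.90. In litter 4746, with 1 library of each, the difference was -0.80. *Sesn2* was higher in null libraries within both litters, by 0.35 and 0.54 on the log2 scale, and *Psat1* was lower by a log2 difference of -0.33 and -0.11. *Atf4* differed by -0.11 and -0.29, beside a fitted estimate of -0.30 over all libraries. The *Atf4* call was absent from 6 of 22 alternative fits. Without null replicate 4 the calls were *Asns* and *Psat1*. With a term for Y-linked reads, 2 of the 10 genes were called in place of 4.

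Other measures also differed between proliferating null and wildtype NSPCs. The share of counts from mitochondrially encoded genes was 2.98%, 3.26%, 4.26% and 3.42% in wildtype replicates 1 to 4 and 5.06%, 4.61%, 4.54% and 6.20% in null replicates. Within wildtype, replicate 3 had the highest share and the lowest *Asns*, *Trib3* and *Chac1*, whereas within null, replicate 4 had the highest share and the highest *Trib3* and *Chac1*. Summed CPM of 6 astrocyte markers was 610 to 783 in wildtype and 1110 to 2039 in null libraries, and 4 of the 5 markers tested rose. Summed CPM of 6 cycling markers was 2485 to 2785 in wildtype and 1456 to 2574 in null libraries, with 2 of 6 called lower. Of 5 neuronal markers tested, 3 fell and 1 rose, while their summed CPM was 846 to 1085 in wildtype and 1047 to 1153 in null libraries. The astrocyte and neuronal sums rest mostly on their most abundant marker. Over the proliferating libraries *Slc1a3* averaged a log2 CPM of 9.82 and the next astrocyte marker, *Slc1a2*, 5.37. Among neuronal markers *Map2* averaged 9.91 and the next, *Elavl4*, 4.88. Of 5 microglial markers, *P2ry12* alone passed the filter and rose (log2 fold change 2.51), and the other 4 were under 1 CPM in every library, with *Cx3cr1* at 0 in every library of the 3 proliferating groups. The part of these measures in the result was not tested. In bulk RNA, fewer cells expressing a gene and less RNA per cell cannot be told apart.

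**Figure D2:**
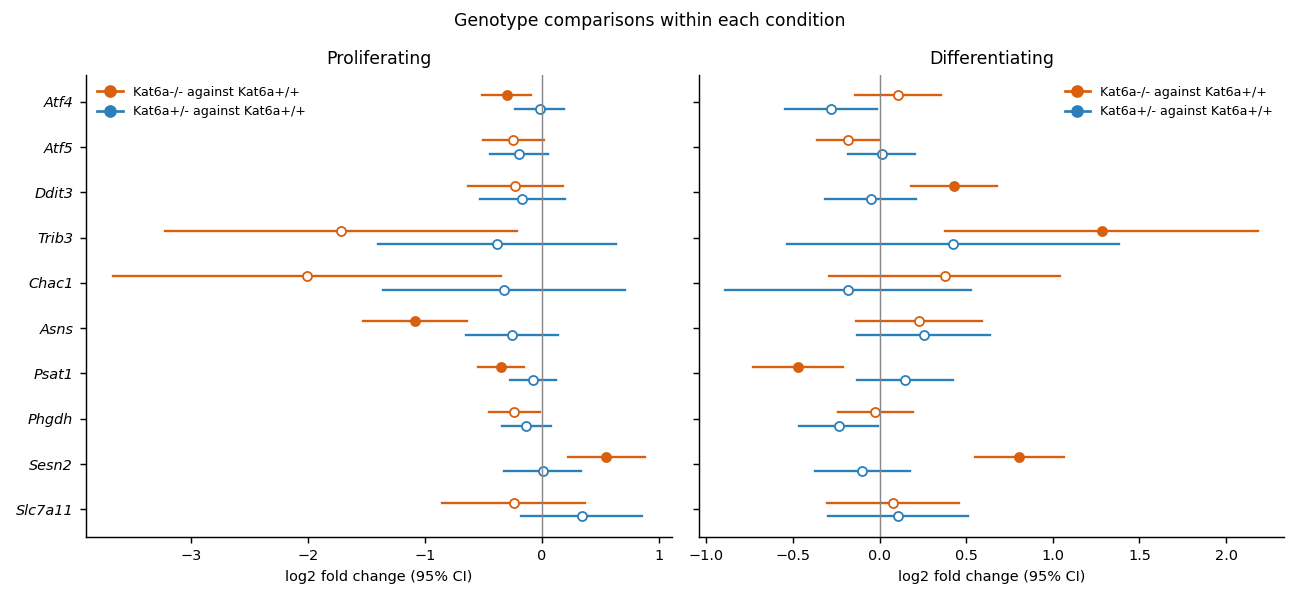
Log2 fold change of each gene in null (orange) and heterozygous (blue) over wildtype NSPCs, in proliferating (left) and differentiating (right) cultures on axes of different range, with 95% intervals; filled circles mark FDR below 0.05 and open circles the other genes. For null cells in proliferating NSPCs 9 of 10 estimates lay below 0, and in differentiating NSPCs 7 of 10 lay above it, with *Sesn2* called higher in both.

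Proliferating heterozygous NSPCs lay between the other genotypes for some genes, but no gene was called. *Asns* was at 87.4, 62.0, 103 and 57.6 CPM in heterozygous replicates 1 to 4. Replicates 2 and 4 were below all wildtype libraries while replicates 1 and 3 were within the wildtype range, and all 4 were above the null libraries. *Trib3* was also higher in replicates 1 and 3, at 4.75 and 7.44 CPM, than in replicates 2 and 4, at 1.20 and 2.10 CPM. *Chac1* was at 5.23 and 7.44 CPM in replicates 1 and 3 and at 1.70 and 1.90 CPM in replicates 2 and 4. Unlike *Asns*, both genes overlapped between heterozygous and null libraries. Heterozygous replicates 2 and 4 were below null replicate 4, which had 2.57 CPM of *Trib3* and 2.06 CPM of *Chac1*. The mitochondrial share was 3.43% and 2.98% in replicates 1 and 3 and 4.05% and 5.21% in replicates 2 and 4, and its part was not tested. Against wildtype, 0% of the 12276 genes were called by limma and 0 by edgeR, with 912 genes at an unadjusted p under 0.05 and 28 called by DESeq2. None of the 10 genes was called by any of these 3 tools, none had an unadjusted p under 0.05, and the smallest FDR was 0.734. The estimates ran from -0.39 for *Trib3* (SE 0.47, FDR = 0.905) to 0.34 for *Slc7a11* (SE 0.24, FDR = 0.805).

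Null NSPCs differed from heterozygous NSPCs in 2 of the 10 genes under proliferating conditions, against 14.8% of all genes tested. *Asns* fell by 0.83 on the log2 scale (FDR = 0.0174) and *Sesn2* rose by 0.55 (FDR = 0.0282). *Atf4* in heterozygous replicates was at 225, 195, 205 and 185 CPM, above all null libraries, but was not called. *Sesn2* overlapped, with heterozygous replicates at 78.2, 69.1, 54.4 and 111 CPM. No call was made without heterozygous replicate 1 or without null replicate 4, and 1 was made without null replicate 1 or without heterozygous replicate 2.

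In differentiating null NSPCs, *Sesn2*, *Ddit3* and *Trib3* rose and *Psat1* fell. These 4 of 10 genes compare with 54.4% of the 13339 genes tested, so the 10 genes were called no more often than genes at large. Over all genes 26.7% were called higher and 27.7% lower. The median log2 fold change was 0.17 over the 10 genes and -0.0158 over all genes. Groups did not overlap for 1 of the 10 genes, *Ddit3*, against 26.9% of all genes.

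*Sesn2* was at 72.0, 82.5, 70.7 and 74.1 CPM in differentiating wildtype replicates and at 169, 105, 129 and 78.3 CPM in null replicates. Null replicates 1 to 3 exceeded all wildtype libraries and replicate 4 was within their range. *Sesn2* rose by 0.81 on the log2 scale (SE 0.12, FDR = 0.000142), and was called in every alternative fit. *Ddit3* was at 9.37, 9.84, 8.47 and 9.21 CPM in wildtype and at 14.3, 11.4, 11.9 and 11.9 CPM in null replicates. All null libraries were above all wildtype libraries, and *Ddit3* rose by 0.43 on the log2 scale (SE 0.11, FDR = 0.00692). *Trib3* was at 0.274, 0.270, 0.241 and 0.375 CPM in wildtype and at 1.24, 0.105, 0.901 and 0.449 CPM in null replicates. Null replicate 2, with the lowest of all values, was below the wildtype libraries and the other 3 were above them. *Trib3* rose by 1.28 on the log2 scale (SE 0.42, FDR = 0.0199), a call made on 2 to 18 reads per library and absent from 10 of the 21 alternative fits in which the gene passed the filter. Without null replicate 3 the estimate was 0.15.

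*Psat1* was at 326, 344, 315 and 414 CPM in differentiating wildtype and at 216, 422, 233 and 296 CPM in null replicates. Null replicate 2 exceeded every wildtype library and the other 3 were below them all. *Psat1* fell by 0.47 on the log2 scale (SE 0.12, FDR = 0.00543), an estimate that was -0.019 without null replicate 3 (FDR = 0.978). *Asns* was not called, at 17.1, 20.6, 26.0 and 19.6 CPM in wildtype and at 28.6, 27.6, 22.7 and 25.6 CPM in null replicates (log2 fold change 0.23, FDR = 0.265). *Chac1* was at 1.01 to 1.14 CPM in wildtype and at 0.897 to 2.57 CPM in null libraries (log2 fold change 0.38, FDR = 0.316). *Atf4* was at 133, 116, 126 and 129 CPM in wildtype and at 156, 89.2, 143 and 109 CPM in null replicates, a wider spread at nearly the same mean (log2 fold change 0.11, FDR = 0.448). *Atf5*, *Phgdh* and *Slc7a11* were not called, at log2 fold changes of -0.18, -0.02 and 0.08.

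The differentiating calls depended on single libraries. Without null replicate 3, or without null replicate 1, *Sesn2* was the only one of the 10 genes called, whereas 5 were called without null replicate 2. Over all genes, calls went from 7258 to 939 without replicate 3, to 1212 without replicate 1 and to 9505 without replicate 2. The calls of *Ddit3* and *Psat1* were each absent from 6 of 22 alternative fits. With equal library weights 1 of the 10 genes was called and with edgeR 1. Within litter 4633, the mean of 2 null libraries, of which 1 was replicate 2, exceeded 1 wildtype library by 0.95 for *Sesn2*, 0.60 for *Ddit3* and 1.48 for *Trib3* on the log2 scale, and *Psat1* differed by 0.02. Within litter 4746 these differences were 0.80, 0.37, 1.27 and -0.83, with 1 library of each genotype.

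Cell composition markers also moved in differentiating null NSPCs. Summed CPM of 6 cycling markers was 567 to 947 in wildtype and 88.0 to 226 in null libraries, and 6 of 6 fell (median log2 fold change -2.74). Mesenchymal markers summed to 11.7 to 26.0 CPM in wildtype and to 193, 20.1, 190 and 127 CPM in null replicates 1 to 4, and all 3 that were tested rose. *Lum*, one of these markers, was at 0 in every null library. The replicates with high mesenchymal sums, 1, 3 and 4, were those with *Psat1* below wildtype and *Trib3* above it. Of 6 astrocyte markers, 3 fell and 1 rose, and they summed to 1783 to 2501 CPM in wildtype and 1385 to 4846 CPM in null libraries, with replicate 2 highest. Of 5 oligodendrocyte markers tested, 4 fell, and the sums did not overlap, at 1173 to 1391 CPM in wildtype and 664 to 1170 CPM in null libraries. Of 6 neuronal markers 3 fell and 1 rose, and of 6 NSPC markers 3 rose and 2 fell. Endothelial markers summed to 46.0 to 72.5 CPM in wildtype and 10.6 to 36.6 CPM in null libraries, but only 1 of the 5 was tested, and it fell. In wildtype, 4 of the 5 were under 1 CPM in every library, so the sum is close to that of 1 gene. The mitochondrial share did not separate the groups, at 1.82% to 2.14% in wildtype and 1.86% to 2.29% in null libraries. The part of these measures in the differences was not tested.

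In heterozygous differentiating NSPCs no gene was called against wildtype. *Sesn2* was at 65.4, 80.9, 64.3 and 70.3 CPM and *Ddit3* at 8.77, 9.48, 10.6 and 6.55 CPM in heterozygous replicates 1 to 4. Against wildtype, 0% of the 13339 genes were called by limma and 0 by edgeR, with 1926 genes at an unadjusted p under 0.05 and 8 called by DESeq2. None of the 10 genes was called by any of the 3 tools, 2 had an unadjusted p under 0.05, and the smallest FDR was 0.326. The estimates ran from -0.28 for *Atf4* (SE 0.12, FDR = 0.326) to 0.43 for *Trib3* (SE 0.44, FDR = 0.697). Null against heterozygous libraries gave 4 of 10 calls, against 37.5% of all genes. *Sesn2* rose by 0.91 (FDR = 0.000674), *Ddit3* by 0.48 (FDR = 0.0150) and *Atf4* by 0.39 (FDR = 0.0398) on the log2 scale, and *Psat1* fell by 0.62 (FDR = 0.00560). No call was made without null replicate 3, 1 was made without heterozygous replicate 1 or without null replicate 1, and 2 were made without heterozygous replicate 4. Without null replicate 3 the estimates were 0.033 for *Atf4* and -0.17 for *Psat1*. This comparison shares its null libraries with the comparison to wildtype.

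*Asns*, *Trib3*, *Chac1*, *Atf4* and *Psat1* were lower, and *Atf5* higher, in differentiating than in proliferating wildtype NSPCs. RNA was extracted with a mini kit from proliferating and with a micro kit from differentiating NSPCs, and cell density, serum and substrate also differed, so that these cannot be told apart from differentiation. In wildtype NSPCs, 6 of 10 genes were called between conditions, against 72.9% of the 13590 genes tested. *Asns* fell by 2.23 on the log2 scale in differentiating NSPCs (SE 0.20, FDR = 3.23e-09), from a mean of 97.5 ± 18.9 to 20.8 ± 3.71 CPM (SD, n = 4). *Trib3* fell by 4.00 (SE 0.71, FDR = 3.63e-05) and *Chac1* by 2.27 (SE 0.50, FDR = 0.000330). The mean of *Trib3* was 17.8-fold, that of *Chac1* 5.27-fold and that of *Asns* 4.68-fold higher in proliferating cells. *Atf4* fell by 0.76 (SE 0.16, FDR = 0.000221) and *Psat1* by 0.41 (FDR = 0.0381), while *Atf5* rose by 0.29 (FDR = 0.0328). The *Psat1* call was absent from 14 of 32 alternative fits.

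In null NSPCs, 4 of 10 genes were called between conditions, against 69.2% of all genes tested. *Asns* fell by 0.66 (FDR = 0.0117) and *Atf4* by 0.42 (FDR = 0.0230) on the log2 scale in differentiating cells. *Ddit3* rose by 0.53 (FDR = 0.0141) and *Atf5* by 0.48 (FDR = 0.00266). *Trib3* (log2 fold change -1.24, FDR = 0.192) and *Chac1* (0.78, FDR = 0.331) were not called. In null cells the mean of *Asns* was 1.60-fold and that of *Atf4* 1.32-fold higher in proliferating cells.

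Whether the null genotype altered the response to culture condition was tested with the interaction term. Of the 10 genes, 3 were called, against 13.9% of all genes tested, and all 10 estimates were positive, with a median of 0.46 against -0.0007 over all genes. The difference between conditions was less negative in null than in wildtype cells by 1.56 for *Asns* (SE 0.30, FDR = 0.00149) on the log2 scale. For *Chac1* the interaction was 3.05 (SE 0.86, FDR = 0.0214), and for *Ddit3* it was 0.72 (SE 0.23, FDR = 0.0427). *Trib3*, at 2.76, had an SE of 1.10 and was not called (FDR = 0.0964). *Sesn2*, at 0.10, and *Psat1*, at 0.11, had estimates near 0, and both turned negative when library totals replaced TMM, a scaling that moved the median of all genes by -0.15. The interaction fit used no library quality weights, unlike the fit of differentiating NSPCs alone. For *Psat1*, the separate fits had given -0.35 in proliferating and -0.47 in differentiating null against wildtype NSPCs. Without differentiating null replicate 2, the *Psat1* interaction was -0.13. The *Asns* call was made in every alternative fit, the *Chac1* call was lost without proliferating null replicate 1 (FDR = 0.0583), and the *Ddit3* call was absent from 21 of 32 alternative fits.

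Embryos whose label occurs in both conditions gave a comparison within embryo. *Asns* was lower in differentiating than in proliferating cells of 6 of 6 embryos, by 1.43-fold to 6.02-fold, and of 5 of 5 embryos with matching Y-linked reads, by 1.43-fold to 3.99-fold. *Trib3* was lower in 6 of 6, by 1.57-fold to 41.1-fold, and *Atf4* was lower in 6 of 6, by 1.24-fold to 2.01-fold, with unchanged ranges in the 5 matching embryos. *Atf5* was higher in differentiating cells of all 6. Of the 6 embryos 3 were null, 2 wildtype and 1 heterozygous. The *Asns* fold was 1.43, 1.58 and 2.35 in the null embryos, 2.88 in the matching wildtype, 3.99 in the heterozygous and 6.02 in the other wildtype embryo. *Chac1* was lower in differentiating cells of the heterozygous embryo (13.7-fold) and of the wildtype embryos (1.69-fold in the matching and 5.17-fold in the other). In the null embryos its fold of proliferating over differentiating was 0.248, 0.606 and 0.996. These differences between genotypes were not tested within embryos, and the cells are those of the libraries already compared.

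**Figure D3:**
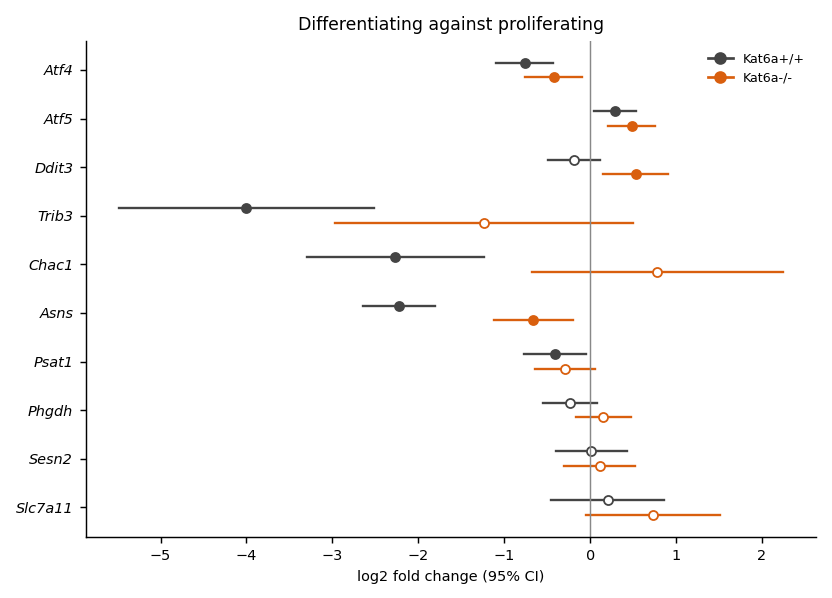
Log2 fold change of each gene in differentiating over proliferating NSPCs, for wildtype and null cells, with 95% intervals; filled circles mark FDR below 0.05 and open circles the other genes. *Asns* differed by -2.23 in wildtype and -0.66 in null cells, *Chac1* by -2.27 and 0.78, and for all 10 genes the null estimate lay to the right of the wildtype estimate. The fit used no library quality weights.

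Genes of the same pathway were examined as lists, each with its count of calls. In proliferating null NSPCs 30.0% of all genes tested were called, 16.2% higher and 13.8% lower, and counts such as 3 of 8 or 5 of 14 stand near these shares. In proliferating null NSPCs, 11 of 20 cytosolic aminoacyl-tRNA synthetase genes fell and none rose (median log2 fold change -0.24), and across the alternative fits between 4, with the Y-linked term, and 12 were called. These enzymes charge tRNAs with amino acids. Among the examples, *Vars1* fell by 0.51 (FDR = 0.0190) and *Cars1* by 0.43 (FDR = 0.00790). Of 9 amino acid transporters, 4 fell and none rose (median -0.37). *Slc7a1*, which imports arginine and lysine, fell from 229 to 128 CPM (log2 fold change -0.81, FDR = 0.00288), *Slc7a5*, which imports large neutral amino acids, from 368 to 207 CPM (-0.76, FDR = 0.000478), and *Slc1a5*, a glutamine transporter, from 48.9 to 30.7 CPM (-0.71, FDR = 0.0221, and -0.44 without null replicate 4). Of 8 serine, one-carbon and proline genes, 3 fell and none rose (median -0.37), namely the mitochondrial folate enzymes *Mthfd1l* (-0.74, FDR = 0.0182), *Mthfd2* (-0.68, FDR = 0.00245) and *Shmt2* (-0.44, FDR = 0.00405). With the Y-linked term, 2 transporters and 2 serine, one-carbon and proline genes were called.

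Of 16 further targets of ATF4 and CHOP, 6 fell and 1 rose in proliferating null NSPCs (median -0.58). *Atf3*, a transcription factor of the response, fell from 4.02 to 0.782 CPM (log2 fold change -2.16, FDR = 0.00566), *Stc2*, a secreted glycoprotein, from 20.7 to 5.66 CPM (-1.65, FDR = 0.0168), and *Cth*, which makes cysteine, from 6.88 to 2.30 CPM (-1.58, FDR = 0.000468). *Gpt2*, a mitochondrial alanine transaminase, rose (0.30, FDR = 0.0308). Without wildtype replicate 1, or without null replicate 1, 4 of these targets were called. Of 14 genes for eIF2 kinases and their regulators, 3 fell and 2 rose (median -0.12). The eIF2 phosphatase subunit *Ppp1r15a* (-0.59, FDR = 0.0322) and the kinase gene *Eif2ak3* (-0.38, FDR = 0.00293) fell, whereas *Impact*, an inhibitor of the amino acid sensor GCN2, rose (0.78, FDR = 0.00243).

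Chaperones and sensors of the endoplasmic reticulum went the other way in proliferating null NSPCs, where 7 of 17 rose and 1 fell (median 0.14). *Dnajb9* rose by 0.85 (FDR = 0.00130) and *Dnajc3* by 0.44 (FDR = 0.00218), whereas *Edem1* fell by 0.25 (FDR = 0.0361), and without wildtype replicate 1, 3 of the 17 were called. Of 10 glutathione and antioxidant genes 1 fell, *G6pdx* (-0.24, FDR = 0.0404). Of 5 mitochondrial chaperones and proteases 1 fell, *Lonp1* (-0.43, FDR = 0.0400). Of 5 close relatives of the 10 genes 1 rose, *Sesn3* (0.68, FDR = 0.00624).

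In differentiating null NSPCs 54.4% of all genes tested were called, 26.7% higher and 27.7% lower. Of the 16 further targets, 10 rose and 3 fell (median 0.50). *Nupr1*, a stress-induced chromatin protein, rose from 0.841 to 17.8 CPM (log2 fold change 5.29, FDR = 8.0e-05), the secreted factor *Gdf15* from 2.10 to 4.83 CPM (1.76, FDR = 0.0169) and *Atf3* from 5.96 to 16.2 CPM (1.28, FDR = 0.00163), while *Gpt2* fell (-1.44, FDR = 0.000243). Of the 17 endoplasmic reticulum genes 13 rose and none fell (median 0.52), among them *Pdia6* (0.83, FDR = 0.000434), *Edem1* (0.68, FDR = 0.000156) and the calcium-binding chaperone *Calr* (0.66, FDR = 0.00231). Of 10 glutathione and antioxidant genes 6 rose (median 0.43). *Hmox1*, which degrades haem, rose from 97.1 to 293 CPM (1.60, FDR = 0.00106), and *Gss*, the glutathione synthetase, rose from 22.8 to 41.9 CPM (1.08, FDR = 2.9e-05). Without null replicate 3, and likewise without null replicate 1, 2 targets, 1 endoplasmic reticulum gene and 0 antioxidant genes were called, and edgeR called 6, 3 and 3. Without null replicate 3 the estimates were 2.57 for *Nupr1*, 0.36 for *Gdf15*, -0.41 for *Gpt2*, 0.22 for *Pdia6*, 0.21 for *Edem1*, 0.17 for *Calr* and 0.73 for *Gss*, and that of *Atf3* was 2.17.

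Of the 14 genes for eIF2 kinases and their regulators, 5 rose and 1 fell in differentiating null NSPCs (median 0.01), with *Ppp1r15a* at 35.7 CPM in wildtype and 58.1 CPM in null libraries (0.88, FDR = 0.000134). Serine, one-carbon and proline genes were again mostly lower, with 6 of 8 called lower and 1 higher (median -0.43). *Shmt1* fell (-1.18, FDR = 9.3e-05) and *Mthfd2* fell (-0.58, FDR = 0.0207), whereas *Mthfd1l* rose (0.59, FDR = 0.0102). Amino acid transporters divided into 3 that rose and 3 that fell. *Slc3a2*, the heavy chain shared by several transporters including that of *Slc7a11*, rose from 226 to 411 CPM (1.06, FDR = 2.9e-05), and *Slc1a4* (1.16, FDR = 0.000494) and *Slc7a1* (0.56, FDR = 0.0239) rose, while *Slc6a9* (-0.68, FDR = 0.00539) and *Slc7a5* (-0.38, FDR = 0.00649) fell. Of 20 tRNA synthetase genes 2 rose and 4 fell (median -0.03), with *Hars1* at 0.34 (FDR = 0.00123, and 0.22 without null replicate 1) and *Vars1* at -0.49 (FDR = 0.000472). Without null replicate 3, 0 eIF2 pathway genes, 0 serine, one-carbon and proline genes and 0 tRNA synthetases were called, and with library totals 14 of the tRNA synthetases were. The estimates without this replicate were 0.56 for *Ppp1r15a*, 0.097 for *Mthfd1l*, -1.33 for *Mthfd2*, 0.32 for *Slc1a4*, -0.26 for *Slc7a1* and -0.068 for *Slc6a9*. Of the 5 relatives 3 rose, led by *Trib1* (1.06, FDR = 0.00159), and *Sesn3* fell (-0.81, FDR = 0.000499). The estimate was 0.51 for *Trib1* without null replicate 1 and -0.14 for *Sesn3* without null replicate 3. *Lonp1* was the 1 of 5 mitochondrial genes that fell (-0.24, FDR = 0.0141), and its estimate was 0.029 without null replicate 3. With edgeR, none of the relatives and none of the mitochondrial genes was called.

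The test of the difference between conditions was called for 6 of 16 targets, 7 of 20 tRNA synthetases, 3 of 14 eIF2 pathway genes, 2 of 9 transporters, 2 of 17 endoplasmic reticulum genes and 2 of 10 antioxidant genes, all in the positive direction, and for 1 of 5 relatives in the negative direction. Over all genes 13.9% were called, 6.36% positive and 7.58% negative, and the counts of 2 of 17 and 2 of 10 stand near these shares. The median interaction was 1.31 for the targets and 0.35 for the tRNA synthetases. None of the 8 serine, one-carbon and proline genes was called. In wildtype cells alone, 19 of 20 tRNA synthetases, 7 of 9 transporters and 6 of 8 serine, one-carbon and proline genes were lower in differentiating than in proliferating NSPCs, with medians of -0.89, -1.20 and -2.30, where 72.9% of all genes were called and 36.2% were lower.

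**Figure D4:**
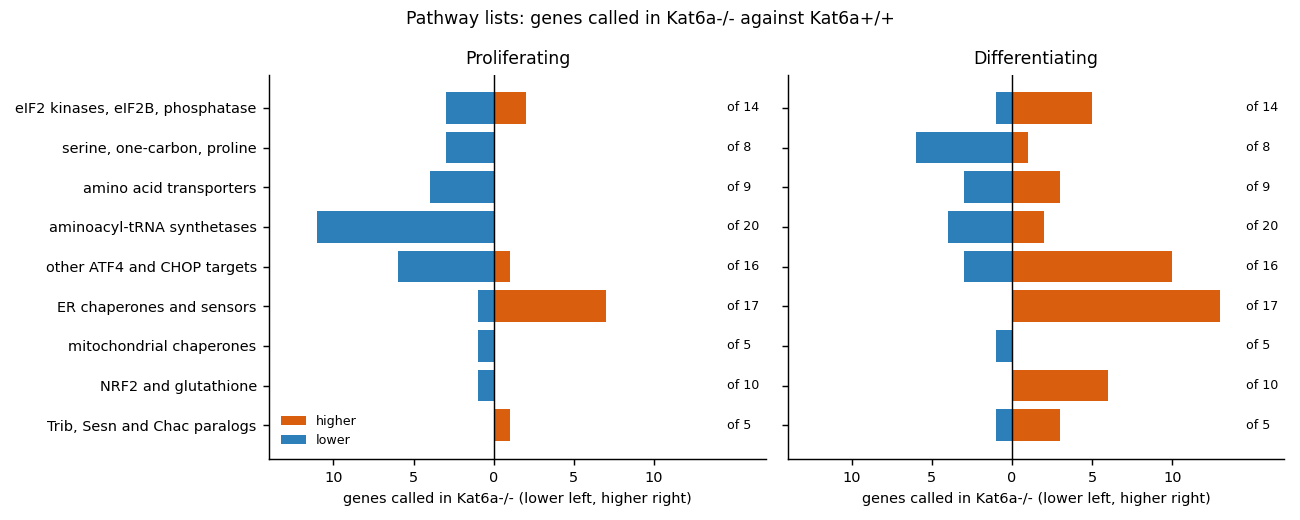
Number of genes called higher (orange, to the right) and lower (blue, to the left) in null than in wildtype NSPCs for each pathway list, in proliferating and differentiating cultures; bars start at 0 and the number tested stands beside each list. In proliferating NSPCs 11 of 20 tRNA synthetases and 6 of 16 further targets were lower, where 13.8% of all genes tested were called lower. In differentiating NSPCs 10 of 16 further targets and 13 of 17 endoplasmic reticulum genes were higher, where 26.7% of all genes were called higher. Across alternative fits of the differentiating comparison, calls in either direction numbered 2 to 14 for these targets and 1 to 14 for these endoplasmic reticulum genes.

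How far the genes moved together was described by correlation of log2 CPM with *Asns* over the 12 libraries of a condition, which include the genotype differences. In proliferating NSPCs Pearson's r with *Asns* was 0.89 for *Psat1*, 0.88 for *Chac1*, 0.88 for *Atf4*, 0.87 for *Trib3* and -0.72 for *Sesn2*. For *Atf5* r with *Asns* was 0.73, for *Phgdh* 0.64, for *Ddit3* 0.48 and for *Slc7a11* -0.0029. *Trib3* and *Chac1* correlated at 0.97. In differentiating NSPCs r with *Asns* was 0.09 for *Trib3*, 0.26 for *Chac1* and -0.35 for *Atf4*, and *Trib3* and *Chac1* correlated at 0.10. There r with *Asns* was 0.34 for *Sesn2*, 0.27 for *Slc7a11* and 0.25 for *Atf5*. For *Psat1* it was -0.07, for *Ddit3* -0.08 and for *Phgdh* -0.16. The genes most like *Asns* were *Cmip* (r = 0.980), *Prelid1* (0.977) and *Ggt7* (0.976) in proliferating NSPCs and *Snx12* (0.875), *D430041D05Rik* (0.859) and *Plcg2* (0.852) in differentiating NSPCs. They were picked as the highest r among all other genes tested over 12 libraries. Such picked values are high by selection and were not tested.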

How the data were processed

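RNA of 24 NSPC cultures was sequenced from stranded poly(A) libraries, and the authors deposited raw counts of reads per gene, obtained with featureCounts from mm39 alignments and strict RefSeq annotation per the file headers and methods. Tool versions and the strand setting are not given in the sources used here. From these counts, protein-coding genes were kept (21030 of 26411 genes, 98.05% to 98.84% of counts), *Xist* and Y-linked genes were removed, and edgeR 4.0.16 filterByExpr and TMM were applied in R 4.3.3. Following the study's methods, limma 3.58.1 was fitted separately by condition, over all 3 genotypes. Proliferating libraries were fitted with voom and litter as a random effect (5 litters, within-litter correlation 0.287). Differentiating libraries (7 litters) were analysed by limma-trend of log2 CPM values with a prior count of 2 and library quality weights. For null against wildtype this fit called 7258 of 13339 genes, more than the study reports, so the study's count was not reproduced there. Comparisons across conditions used voom on all 24 libraries with litter as a random effect (within-litter correlation 0.0036) and without quality weights. The 6 embryo labels that occur in both conditions had no term, so the pairing of their libraries was not used. Empirical Bayes was robust, and FDR was adjusted over all genes tested.

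The 10 genes and the pathway lists were chosen with earlier results of these data known. All 10 genes were reported, and of each list, for null against wildtype, up to 3 called genes in each direction with the largest fold change could be named. Some of these are not reported here. RPKM used the gene lengths of the count files, and loci and promoter stretches were placed in GRCm39. Libraries within a group differed beyond sampling noise (chi-square at least 5.81 per degree of freedom). Alternatives were edgeR's quasi-likelihood test, DESeq2 1.42.0, other scalings, no low-count filter, other treatments of litter, weights, sex and replicate number, and leaving out each library. Scripts were tested on simulated counts. Depth was 7826660 to 40838203 counts per library.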

Additional observations from a re-analysis of the deposited data

Results flagged for a closer look

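The interaction of null genotype and culture condition was called for 3 of the 10 genes, against 13.9% of all genes tested. The log2 interaction was 0.72 for *Ddit3*, 3.05 for *Chac1* and 1.56 for *Asns*. Of 24 fits that each left out 1 library, *Asns* was called in 24, *Chac1* in 23 and *Ddit3* in 6. Among 60 sets of 4 libraries (10 genes in 6 groups), 2 had 1 library far from the other 3 by Dixon's criterion, which chance gives in about 1 of 20 sets. *Psat1* was at 357 CPM in proliferating heterozygous replicate 4, below the other heterozygous libraries, and *Phgdh* was at 75.3 CPM in proliferating null replicate 4, below the other null libraries. Both libraries came from litter 5063 and had the highest mitochondrial share of their groups, at 5.21% and 6.20%.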

How the results depend on the processing

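With a term for Y-linked reads, 2 of the 10 genes were called for null against wildtype in proliferating NSPCs. For null against heterozygous in proliferating NSPCs, calls numbered 1 with edgeR, 4 with library totals, 1 without the litter block and 5 with litter as a fixed term. For null against wildtype in differentiating NSPCs, calls numbered 1 with edgeR, 2 with DESeq2, 1 without quality weights, 1 with litter as a fixed term and 2 with the Y-linked term. For null against heterozygous in differentiating NSPCs they numbered 1, 2, 1, 0 and 0 in that order. Leaving out 1 library gave 2 to 6 calls for null against wildtype and 0 to 3 for null against heterozygous in proliferating NSPCs, and 1 to 5 and 0 to 5 in differentiating NSPCs. It gave 4 to 6 calls between conditions in wildtype, 3 to 6 in null cells, and 1 to 4 for the interaction, the lowest without proliferating null replicate 1.

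Replicate numbers did not pair the samples, since deviations of same-numbered libraries correlated between -0.48 and 0.54. With the replicate block, 4 genes were called for null against wildtype in each condition and 3 for null against heterozygous in each. It gave 5 between conditions in wildtype cells, 4 in null cells and 2 for the interaction. 

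Of the estimates given here that turned sign, none was past the threshold in the original fit except those of *Nars1*, *Slc7a1*, *Slc38a2* and *Lonp1*. For null against wildtype in differentiating NSPCs, *Atf4* was at -0.020 with edgeR, -0.0077 with DESeq2, -0.036 with library totals and -0.052 without weights. *Phgdh* was at 0.095 with edgeR, 0.11 with DESeq2, 0.091 without weights and 0.13 with the Y-linked term. Library totals gave -0.078 for *Slc7a11* and -0.0021 for *Nars1*. For heterozygous against wildtype in differentiating NSPCs, *Trib3* was at -0.017 with litter as a fixed term and *Atf4* at 0.077 with the Y-linked term. *Sesn2* between conditions in wildtype was at -0.0084 without the low-count filter. Library totals gave interactions of -0.029 for *Psat1* and -0.050 for *Sesn2*. Leaving out 1 library moved, in differentiating null against wildtype, *Atf4* from -0.22 to 0.15, *Phgdh* from -0.061 to 0.21, *Slc7a11* from -0.088 to 0.80, *Slc7a1* from -0.26 to 0.71, *Slc38a2* from -0.35 to 0.065 and *Lonp1* from -0.30 to 0.029. It moved heterozygous *Trib3* from -0.039 to 1.23. Between conditions it moved *Sesn2* from -0.0040 to 0.080 in wildtype and from -0.10 to 0.31 in null cells, and *Phgdh* from -0.011 to 0.21 in null cells. The interaction moved from -0.14 to 0.30 for *Sesn2* and from -0.13 to 0.21 for *Psat1*. Depth limited *Trib3* most, with 2 to 18 reads per differentiating library. The cause of these changes was not tested.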
